A study of Mus musculus with 17 samples.

Results

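The regions of chromatin assigned to Runx1, Runx2 and Runx3 were followed by ATAC-seq through 3 stages of B cell differentiation. ATAC-seq uses a transposase to cut and tag open chromatin, so that reads accumulate over accessible regions. A region was included when the annotation in the table gave Runx1, Runx2 or Runx3 as its transcript or as its nearest transcription start. This rule, which uses no measured value, found 77 of 66177 regions, of which 31 belonged to Runx1, 23 to Runx2 and 23 to Runx3. The unit is the RPPM, the reads in a region for every 1000000 reads that its library had in all regions.

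The RUNX family consists of 3 transcription factors that bind the same DNA core through their Runt domain and gain affinity for it from a shared partner, CBFβ. Runx1 is needed for definitive hematopoiesis and for early B cell development, Runx2 for osteoblast formation, and Runx3 for the programs of cytotoxic T cells and NK cells. Each gene is read from a distal and a proximal promoter, and the resulting proteins differ at their N terminus. The factors activate or repress genes according to the coactivators, such as p300 and CBP, or the corepressors of the TLE family that they recruit.

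All mice carried floxed Dnmt3a and Dnmt3b alleles (Dnmt3afl/fl Dnmt3bfl/fl) and were aged 8 to 12 weeks when the experiments began. Dnmt3-sufficient mice (C) were littermates without Cre, and Dnmt3-deficient mice (KO) carried 1 allele of a Cre driven in the B lineage, which deletes the de novo DNA methyltransferases in these cells. Naive B cells (nB) were B220+GL7-Fas- cells of lymph nodes from unimmunized mice. Immunization with phycoerythrin (PE) preceded the other sorts by 30 days. Germinal center B cells (GCB), sorted as B220+GL7+Fas+PE+, were pooled from 2 mice for a library. Plasma cells of the bone marrow (BMPC) were sorted as CD138+. The 16 libraries with values comprised 3 C nB, 2 KO nB, 2 C GCB, 4 KO GCB, 3 C BMPC and 2 KO BMPC libraries. The nB mice were all male and the BMPC mice all female, so that sex and cell type cannot be told apart between these 2 cell types, while GCB came from both sexes (1 female and 1 male C library, 3 female and 1 male KO libraries), and sequencing batches were not given.

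The regions on which the results turned are represented by 6 stretches of 200 bases, read from mm9 on the plus strand. They are the middles of distal regions that opened or closed during differentiation, the middle of a single Runx2 region called between genotypes, and the bases before the distal start of Runx3. Capitals mark matches, on either strand, to the cores searched here: TGTGGT for RUNX (ACCACA on the other strand), GGAAGT for PU.1, CAGCTG for E2A, ATGCAAAT for Oct-2, GAAGTGAAA for PU.1-IRF, which overlaps the PU.1 core, and TGANTCA for AP-1.
Runx1 intron, opened in BMPC, chr16:92767768-92767967: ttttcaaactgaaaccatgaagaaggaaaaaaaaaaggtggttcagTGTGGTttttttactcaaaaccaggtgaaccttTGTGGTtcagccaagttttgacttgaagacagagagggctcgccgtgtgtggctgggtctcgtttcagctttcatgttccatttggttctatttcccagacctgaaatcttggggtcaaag
Runx1 upstream, closed in BMPC, chr16:92874323-92874522: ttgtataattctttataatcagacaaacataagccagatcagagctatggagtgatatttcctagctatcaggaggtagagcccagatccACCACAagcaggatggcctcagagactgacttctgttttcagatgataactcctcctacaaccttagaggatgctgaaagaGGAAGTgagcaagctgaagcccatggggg
Runx2 downstream, opened in GCB and BMPC, chr17:44624736-44624935: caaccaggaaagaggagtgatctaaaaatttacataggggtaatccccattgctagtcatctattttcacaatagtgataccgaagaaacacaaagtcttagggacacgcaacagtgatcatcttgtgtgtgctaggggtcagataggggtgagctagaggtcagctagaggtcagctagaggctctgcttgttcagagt
Runx2 intron, higher in KO BMPC, chr17:44928878-44929077: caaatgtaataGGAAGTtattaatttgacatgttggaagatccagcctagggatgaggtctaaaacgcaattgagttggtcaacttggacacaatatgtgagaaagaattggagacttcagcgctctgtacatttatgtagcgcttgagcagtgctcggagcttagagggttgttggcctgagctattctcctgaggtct
Runx3 before the distal start, chr4:134676360-134676559: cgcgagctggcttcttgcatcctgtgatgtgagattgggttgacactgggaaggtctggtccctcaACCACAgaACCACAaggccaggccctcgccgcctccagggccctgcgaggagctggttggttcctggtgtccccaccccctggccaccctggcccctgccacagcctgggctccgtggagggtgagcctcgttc
Runx3 intron, opened in GCB and BMPC, chr4:134717427-134717626: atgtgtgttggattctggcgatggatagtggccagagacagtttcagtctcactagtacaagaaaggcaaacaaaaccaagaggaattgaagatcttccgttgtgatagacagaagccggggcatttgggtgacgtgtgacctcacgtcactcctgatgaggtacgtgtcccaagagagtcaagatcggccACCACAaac

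The Runx1 intron stretch holds 2 RUNX cores and the stretch before the distal Runx3 start also holds 2, which lie 8 bases apart. The upstream Runx1 stretch holds 1 RUNX and 1 PU.1 core, the Runx3 intron stretch 1 RUNX core near its end and the Runx2 intron stretch 1 PU.1 core. None of the 6 cores searched is in the stretch downstream of Runx2. GC content is 66.0% before the distal Runx3 start and 43.0% to 49.0% in the other 5 stretches. Over their whole length, 28 of the 77 Runx regions (36.4%) hold the RUNX core, against 37.9% of 65891 regions on named chromosomes, and in the central 200 bases the shares are 22.1% and 17.8%. The PU.1 core is in 45.5% of the 77 regions against 43.2% of all regions, with 41.9% at Runx1, 34.8% at Runx2 and 60.9% at Runx3. The E2A core is in 29.9% against 32.4%, with 25.8% at Runx1, 17.4% at Runx2 and 47.8% at Runx3. The other cores were in 7.79% (Oct-2), 1.30% (PU.1-IRF) and 15.6% (AP-1) of the 77 regions, against 5.87%, 3.02% and 16% of all regions. These matches were counted and not tested, and a match does not show that a factor was bound.

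The nB libraries had 4104875 to 6079018 reads in regions, GCB libraries 907959 to 2280954 and BMPC libraries 5357687 to 8232313. Of these, the Runx regions took 2604 to 3978 reads in an nB library, 540 to 1228 in a GCB library and 3841 to 5558 in a BMPC library. A floor of 3 reads was worth from 0.494 to 0.731 RPPM in nB, 1.32 to 3.30 RPPM in GCB and 0.364 to 0.560 RPPM in BMPC, and it covers counting error only. Mitochondrial DNA took 7.43% to 10.1% of the reads in GCB and 2.56% to 4.59% in the other libraries, so the GCB libraries were the shallowest and held the most mitochondrial reads. Summed over its regions, Sdc1, which encodes CD138, averaged 153 RPPM in C BMPC and 30.3 and 20.4 RPPM in C nB and C GCB. Other plasma cell markers separated C nB from C BMPC less evenly. Prdm1 averaged 330 RPPM in C nB and 350 in C BMPC, and Irf4 283 and 299. Xbp1 averaged 138 and 323 RPPM, Tnfrsf17 13.0 and 68.7, and Tnfrsf13b 212 and 296. Of the germinal center markers, S1pr2 averaged 19.3, 119.7 and 102 RPPM in C nB, C GCB and C BMPC, and Bcl6 251, 266 and 75.1 RPPM, so that S1pr2 was also high in C BMPC and Bcl6 in C nB. Pax5, which encodes the factor that maintains B cell identity, averaged 359 RPPM in C nB, 260.3 in C GCB and 89.2 in C BMPC.

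Accessibility was also listed at markers of other cell types, among them cells in which RUNX genes are known to act. The regions of 8 myeloid markers summed to 109 to 117 RPPM in C nB, 77.8 to 109 in C GCB and 187 to 196 in C BMPC, and those of 7 osteoblast and stroma markers to 105 to 122, 191 to 208 and 189 to 199 RPPM. Those of 11 T cell markers summed to 438 to 454 RPPM in C nB, 417 to 424 in C GCB and 231 to 253 in C BMPC. The 5 NK cell markers summed to 534 to 541, 563 to 619 and 628 to 654 RPPM. The 3 plasmacytoid dendritic cell markers summed to 200 to 219, 177 to 180 and 250 to 279 RPPM. The 4 erythroid markers summed to 68.5 to 89.6, 55.0 to 70.3 and 101 to 117 RPPM. The T cell sum was lower in C BMPC than in C nB, and the sums of the other 5 lists were higher, as were the Runx2 and Runx3 sums given below. The genes of a list contributed unequally. Alpl, an osteoblast marker, averaged 21.2 RPPM in C nB and 103 in C BMPC, and without it, an alternative chosen after seeing the data, the osteoblast and stroma sums were 85.4 to 97.9 RPPM in C nB, 152 to 171 in C GCB and 87.7 to 96.8 in C BMPC. In the same list, Sp7 averaged 19.6 RPPM in C nB and 38.8 in C BMPC, while Bglap averaged 43.5 and 21.4. Cxcl12 averaged 3.55, 71.1 and 3.86 RPPM in C nB, C GCB and C BMPC. Of the myeloid markers, Itgam averaged 59.1 RPPM in C nB and 104 in C BMPC and Cebpe 26.4 and 67.7, while Csf1r averaged 12.1 and 4.39. Of the T cell markers, Cd2, which B cells also express, averaged 243 RPPM in C nB and 39.6 in C BMPC, while Lck averaged 102 and 95.7. Cd3d averaged 62.3 and 41.1 RPPM, whereas Cd4 was higher in C BMPC, at 4.85 and 33.6 RPPM. Of the NK cell markers, Klrb1c held most of the sum, at 460 RPPM in C nB and 481 in C BMPC. Prf1 averaged 4.27 and 44.9 RPPM, Eomes 18.7 and 46.3, and Tbx21 54.9 and 67.5, so that all 4 NK markers with regions were higher in C BMPC. Of the plasmacytoid dendritic markers, Ccr9 averaged 137 and 166 RPPM, Bst2 47.2 and 69.2 and Siglech 25.5 and 27.7. Of the erythroid markers, Klf1 averaged 49.5 and 61.5 RPPM, Tal1 20.2 and 48.2 and Hbb-b1 11.2 and 0.546. No region was assigned to Cd3g, Cd8a, Cd8b1, Thy1 or Bcl11b among the T cell markers or to Ncr1 of the NK markers. The same held for Lyz2 and Ly6g of the myeloid, Ibsp of the osteoblast and Gata1 of the erythroid markers. The staining panels also contained antibodies to CD11b, CD11c, CD90.2 and Ly6-G, so that cells bearing these myeloid and T cell markers could be gated out. The part of other cells in the Runx values was not tested. In sorted bulk cells, a region open in fewer cells and a region less open in every cell cannot be told apart.

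The 3 loci differed in extent. The Runx1 regions spanned 437 kb of chromosome 16 and covered 14.8 kb of it, the Runx2 regions spanned 627 kb of chromosome 17 and covered 11.9 kb, and the Runx3 regions spanned 153 kb of chromosome 4 and covered 13.3 kb. Runx1 and Runx2 lie on the minus strand and Runx3 on the plus strand. Of the Runx1 regions, 15 lay wholly in introns, 12 outside genes and 3 at annotated promoters. Runx2 overlaps Supt3, which encodes a subunit of coactivator complexes, and 6 of the 23 Runx2 regions were wholly in introns of Supt3 and were included for their nearest start alone. A further Runx2 region, chr17:44913534-44914797, covers the start of Supt3 itself. Of the Runx3 regions, 2 lay closest to the transcript of Clic4, which encodes a chloride channel protein, and were included for the nearest start alone.

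**Figure D1:**
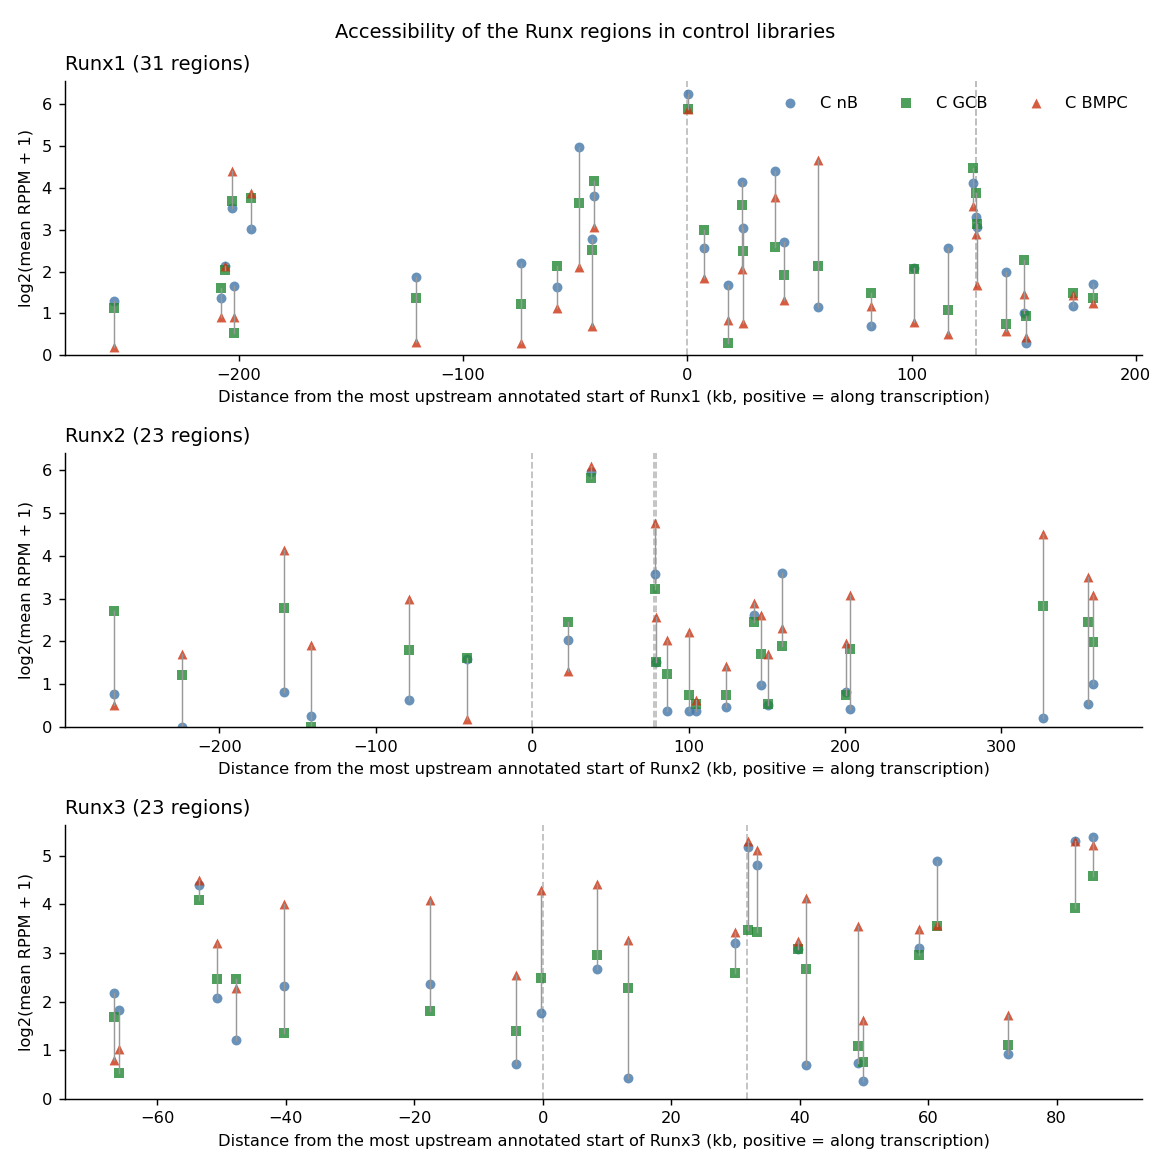
Each point is 1 Runx region in 1 cell type of C mice, with distance in kb from the most upstream annotated start of its gene on the horizontal axis (positive along transcription) and log2(mean RPPM + 1) on the vertical axis. The highest points are the regions at the distal Runx1 start and at the Supt3 start within Runx2, and many of the other regions separate by cell type.

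Summed over all regions of a locus, Runx1 was most accessible in nB and least in BMPC, Runx2 was most accessible in BMPC, and Runx3 was lowest in GCB and highest in BMPC. The Runx1 sums were 275, 261 and 263 RPPM in the 3 C nB libraries, 220.8 and 220.6 in C GCB, and 200.2, 165 and 186 in C BMPC. The Runx2 sums were 107, 94.2 and 105 RPPM in C nB, 132 and 101 in C GCB, and 195, 223 and 200.4 in C BMPC. The Runx3 sums were 252, 220.04 and 258 RPPM in C nB, 153 and 135 in C GCB, and 316, 371 and 327 in C BMPC. C groups did not overlap in any of the 3 loci, except that the Runx2 sums of nB and GCB did. The share of all genes whose sums separate by cell type was not counted.

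As means, Runx1 measured 266 ± 7.68 RPPM (SD, n = 3) in C nB and 184 ± 17.4 RPPM (SD, n = 3) in C BMPC, a ratio of 0.690. Runx2 measured 102 ± 7.04 and 206 ± 14.7 RPPM, a ratio of 2.01, and Runx3 243 ± 20.3 and 338 ± 28.9 RPPM, a ratio of 1.39. In C GCB the means were 221 ± 0.119 RPPM for Runx1, 117 ± 21.8 for Runx2 and 144 ± 12.5 for Runx3 (SD, n = 2). The sums are descriptions with no test, and the tests below were made per region. Per kb of region, which allows genes to be set side by side, C nB values were 18.1 RPPM per kb at Runx1, 8.56 at Runx2 and 18.3 at Runx3, and C BMPC values were 12.5, 17.2 and 25.5 RPPM per kb. Per kb, Runx2 was thus the least accessible of the 3 loci in nB and stood above Runx1 in BMPC.

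In KO libraries the order of the cell types was the same, with mean sums of 293, 233 and 203 RPPM at Runx1, 101, 130 and 175 RPPM at Runx2 and 250.04, 163 and 319 RPPM at Runx3 in nB, GCB and BMPC. The KO and C ranges overlapped at Runx1 in GCB and BMPC, at Runx2 in nB and GCB and at Runx3 in all 3 cell types. They did not overlap at Runx1 in nB, where 2 KO libraries gave 288 and 297 RPPM, nor at Runx2 in BMPC, where 2 KO libraries gave 181 and 169 RPPM. The share of all genes whose sums separate in this way was not counted. Neither difference was tested, so no genotype difference is read from them. The region at the Supt3 start held much of the Runx2 sum, and without it, an alternative chosen after seeing the data, C nB averaged 41.6 ± 4.52 and C BMPC 138 ± 17.3 RPPM, a ratio of 3.33. Without the 2 regions whose transcript is Clic4, the Runx3 ratio of C BMPC to C nB was 1.61 in place of 1.39.

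**Figure D2:**
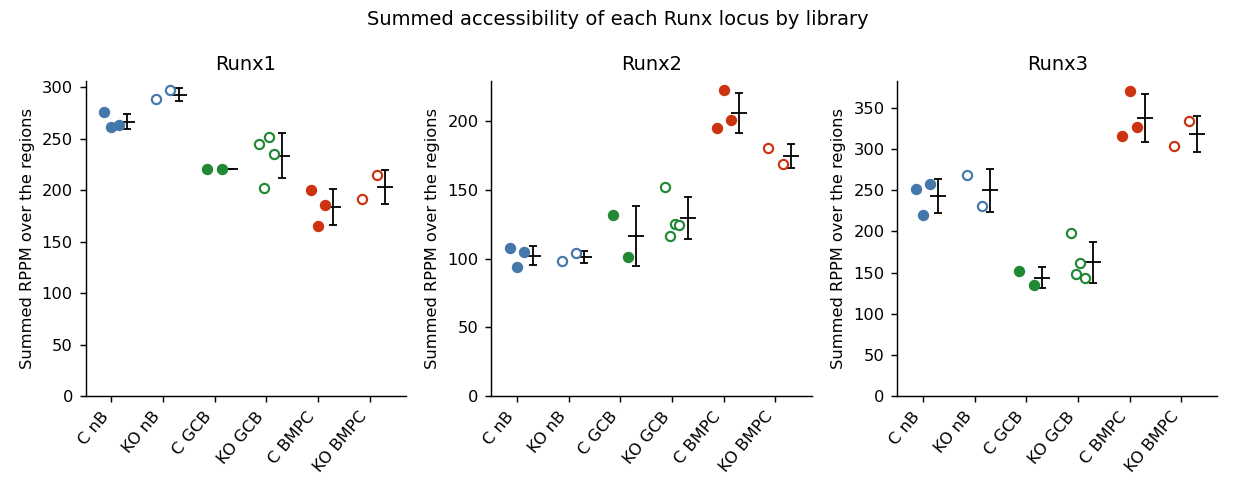
Summed RPPM over the regions of each gene, with 1 point per library and a bar with its error for the mean and SD of each of the 6 groups. Runx1 falls from nB to BMPC, Runx2 is highest in BMPC, and Runx3 is lowest in GCB, in C and in KO libraries.

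Each region was tested with limma on the log2(RPPM + 1) scale. Called regions are those with a 2-fold or larger difference and an adjusted p no greater than 0.01. From C nB to C BMPC, 39 of 77 Runx regions were called, against 38.1% of all regions. Of these, 25 rose, where 18% of all regions did, and 14 fell, where 20.1% of all did. The 3 genes moved apart: 13 of 23 Runx2 regions rose and 2 fell, 11 of 23 Runx3 regions rose and 2 fell, and 1 of 31 Runx1 regions rose and 10 fell. The median log2 difference was 1.19 over Runx2 regions, 0.75 over Runx3 and -0.73 over Runx1, beside 0.03 over all regions. The Runx2 regions that rose were 5 in introns, 4 in introns of Supt3, 3 outside genes and 1 at the proximal starts, with log2 differences from 1.17 to 4.31. The 10 Runx1 regions that fell were 5 in introns, 4 outside genes and 1 at the proximal start, with log2 differences from -1.37 to -2.94. With 5 RPPM added before the log in place of 1, the calls were 18, of which 14 were higher and 4 lower. The share of all regions called with this larger addition is not given here. The regions described below that it no longer called in this comparison were chr16:92696912-92697297, chr16:92868787-92869088, chr17:44750996-44751263, chr17:44791476-44792289, chr17:44872693-44873654, chr17:44993284-44993470, chr17:45092867-45093244, chr4:134609563-134609918 and chr4:134628580-134628886.

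From C nB to C GCB, 19 of 77 regions were called, beside 22.7% of all regions. Of these, 9 were higher, as were 14.2% of all regions, and 10 lower, as were 8.47%. Runx1 had 1 higher and 4 lower, Runx2 5 and 1, and Runx3 3 and 5. From C GCB to C BMPC, 28 were called, beside 30.4% of all regions. Of these, 18 were higher (11.3% of all regions) and 10 lower (19.1%), with 2 higher and 8 lower in Runx1, 7 and 2 in Runx2, and 9 and 0 in Runx3. These directions depend on scaling, because quantile normalization moved the median of all regions by -0.11 and by 0.14 in these comparisons. With it, 6 Runx regions rose and 14 fell from C nB to C GCB, and 28 rose and 7 fell from C GCB to C BMPC. Rises were 30.0% and 80.0% of these Runx calls, beside 51.3% and 49.3% of the calls over all regions. From C nB to C BMPC quantile normalization gave 25 and 14, the counts without it. With a pseudocount of 5 RPPM, 8 regions were called from C nB to C GCB and 13 from C GCB to C BMPC. The shares of all regions with this pseudocount are not given here.

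At Runx1, the distal start, from which hematopoietic cells largely transcribe the gene, kept a high level in all cell types. Its region, chr16:92825161-92826749, measured 82.6, 72.3 and 71.3 RPPM in C nB, 58.9 and 57.6 in C GCB and 52.7, 60.6 and 60.4 in C BMPC. All nB values lay above those of GCB and BMPC, but the log2 difference of -0.38 ± 0.11 (SE) from C nB to C BMPC (limma, adjusted p = 0.0049) was below 2-fold and the region was not called. At the proximal start, chr16:92697413-92697952 averaged 8.94, 13.8 and 6.45 RPPM in C nB, C GCB and C BMPC and fell from GCB to BMPC by 1.0 on the log2 scale (SE 0.23, limma, adjusted p = 0.00066). This call lay at the 2-fold limit and was lost with TMM scaling (-0.96), with quantile normalization (-0.87) and without C GCB replicate 1 (-0.94), C BMPC replicate 2 (-0.93) or C BMPC replicate 3 (-0.94). In KO libraries the same step was -0.26 and was not called. The neighboring region chr16:92696912-92697297, within 0.273 kb downstream of the proximal start, measured 8.28, 6.22 and 7.63 RPPM in C nB and 1.82, 2.74 and 2.02 RPPM in C BMPC. It fell by 1.39 on the log2 scale in C (SE 0.26, limma, adjusted p = 4.6e-05) and by 1.54 in KO (SE 0.32, adjusted p = 0.00021). A further region at this start, chr16:92698327-92699272, averaged 16.3, 21.2 and 10.8 RPPM and was not called in C.

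The single Runx1 region that rose from C nB to C BMPC was chr16:92767423-92768312, in an intron 58.0 kb downstream of the distal start, whose middle with its 2 RUNX cores is given above. It measured 1.22, 1.51 and 0.931 RPPM in C nB, 4.40 and 2.34 in C GCB and 24.5, 22.6 and 25.8 in C BMPC. In KO it measured 1.81 and 1.38 RPPM in nB, from 3.07 to 5.59 in GCB and 26.2 and 27.8 in BMPC. Every BMPC library was above every other library, and the log2 differences from nB to BMPC were 3.52 ± 0.25 (SE) in C and 3.44 ± 0.31 in KO (limma, adjusted p = 2.7e-12 and 4.8e-10). Most of this rise lay between GCB and BMPC, with a log2 difference of 2.57 ± 0.28 in C (adjusted p = 1.8e-08).

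The largest fall at Runx1 was outside genes, 47.8 kb upstream of the distal start, at chr16:92874065-92874780. This region measured 28.0, 30.1 and 33.7 RPPM in C nB, 13.2 and 9.84 in C GCB and 4.94, 1.82 and 3.11 in C BMPC. The KO libraries gave 30.1 and 33.5 RPPM in nB, 11.9 to 19.3 in GCB and 1.94 and 2.43 in BMPC. The 3 cell types did not overlap in either genotype, and the region was the one Runx1 region called lower at both steps and over both together in C. From nB to BMPC it fell by 2.94 on the log2 scale in C (SE 0.23, limma, adjusted p = 2e-11) and by 3.37 in KO (SE 0.29, adjusted p = 1.7e-10).

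Other Runx1 regions closed at different steps. An intron region, chr16:92786941-92787729, averaged 20.2 RPPM in C nB, 4.97 in C GCB and 12.9 in C BMPC, falling by 1.84 on the log2 scale at the first step (SE 0.24, limma, adjusted p = 6.2e-07) and rising by 1.21 at the second (SE 0.24, adjusted p = 0.00013). The region chr16:92868787-92869088, 42.5 kb upstream of the distal start, averaged 5.82, 4.75 and 0.633 RPPM and fell at the second step by 1.82 on the log2 scale (SE 0.32, adjusted p = 3.4e-05), and its first step was not called. The intron region chr16:92675889-92676420 was the single Runx1 region to rise from C nB to C GCB, from 1.01 to 3.82 RPPM on average, with a log2 difference of 1.28 ± 0.36 (limma, adjusted p = 0.0051). Its C GCB values of 4.84 and 2.81 RPPM stood above its C nB values of 1.71, 0.754 and 0.558 RPPM. The call was lost with quantile normalization (0.92, adjusted p = 0.029) and without C nB replicate 2 (adjusted p = 0.021), C nB replicate 3 (0.029) or C GCB replicate 1 (0.093).

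At Runx2, the proximal starts gained accessibility in plasma cells, while the distal start, from which the isoform typical of osteoblasts is made, had no region nearer than 22.3 kb. The region at the proximal starts, chr17:44872693-44873654, measured 10.2, 11.3 and 11.2 RPPM in C nB, 10.6 and 6.09 in C GCB and 23.0, 32.7 and 22.7 in C BMPC. The C BMPC values were all above the others, with log2 differences of 1.17 ± 0.20 from nB and 1.56 ± 0.23 from GCB (limma, adjusted p = 1.6e-05 and 1.8e-06). In KO it measured 9.87 and 11.6 RPPM in nB and 18.1 and 16.4 in BMPC, a log2 difference of 0.64 ± 0.25 that was not called (adjusted p = 0.033). The smaller neighboring region chr17:44872236-44872582 averaged 1.86, 1.86 and 4.94 RPPM in C nB, C GCB and C BMPC and was not called. Per kb, the larger region rose from 11.3 RPPM per kb in C nB to 27.2 in C BMPC.

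The region at the Supt3 start within the Runx2 intron, chr17:44913534-44914797, was the most accessible of the Runx2 set and moved little. It measured 65.8, 57.1 and 58.8 RPPM in C nB, 55.4 and 54.3 in C GCB and 70.1, 64.8 and 67.4 in C BMPC, and was called in no comparison between cell types. Its reads cannot be divided between Supt3 and Runx2.

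The largest gain of any Runx region from C nB to C BMPC lay outside genes, 247 kb downstream of a proximal Runx2 start, at chr17:44624365-44625305. In nB it measured 0.487, 0 and 0 RPPM in C and 0.329 and 0.394 in KO, all below the floor of 3 reads. It measured 8.36 and 3.75 RPPM in C GCB, 4.46 to 5.51 in KO GCB, 20.5, 25.7 and 19.2 in C BMPC and 14 and 12.7 in KO BMPC. The 3 cell types therefore formed separate ranges in rising order, with C BMPC above KO BMPC. On the log2(RPPM + 1) scale, which understates the change of such low values and gives no bound for a fold, it rose by 2.55 ± 0.31 from C nB to C GCB (limma, adjusted p = 2.1e-07) and by 4.31 ± 0.28 from C nB to C BMPC (adjusted p = 3.5e-13), and by 3.40 ± 0.34 from KO nB to KO BMPC.

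A comparable course was seen in Supt3 introns upstream of Runx2. The region chr17:45110344-45111094, 159 kb upstream of the distal start, measured 0.974, 0.942 and 0.372 RPPM in C nB, 6.16 and 5.62 in C GCB and 14.4, 18.4 and 17.1 in C BMPC. The region chr17:45030440-45030889, 78.7 kb upstream, averaged 0.536, 2.48 and 6.88 RPPM. Both were called higher at each step in C, as was the region 247 kb downstream, and these 3 were chosen after their values were seen. At chr17:45110344-45111094 the second step was no longer called without C GCB replicate 1 (adjusted p = 0.011) or 2 (0.018). It was also lost with a pseudocount of 0.1 RPPM (limma, adjusted p = 0.031). With 5 RPPM both steps were below 2-fold, at 0.92 and 0.99 on the log2 scale. At chr17:45030440-45030889 the first step was lost without C nB replicate 1 (0.018), C nB replicate 2 (0.024) or C GCB replicate 1 (0.086), and the second without C GCB replicate 2 (0.062), C BMPC replicate 2 (0.018) or C BMPC replicate 3 (0.014). Quantile normalization also lost its first step (limma, adjusted p = 0.074), a pseudocount of 0.1 RPPM its second (0.029) and 5 RPPM both. The region 247 kb downstream lost its second step with a pseudocount of 0.1 RPPM (limma, adjusted p = 0.0102). A different course was found at chr17:45219176-45219551, 267 kb upstream, which was open mainly in GCB. It measured 8.36 and 2.81 RPPM in C GCB and from 6.99 to 11 in KO GCB, against at most 1.13 in nB and at most 0.650 in BMPC.

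Losses at Runx2 were few. The intron region chr17:44791476-44792289 measured 13.9, 7.54 and 12.1 RPPM in C nB, 3.08 and 2.34 in C GCB and 4.16, 3.10 and 4.52 in C BMPC, with a log2 difference of -1.68 ± 0.31 from nB to GCB (limma, adjusted p = 8.2e-05). The Supt3 intron region chr17:44993284-44993470 measured 1.71, 1.88 and 2.42 RPPM in C nB and 0.130, 0 and 0.311 in C BMPC, the latter all below the floor. The opposite held at chr17:45092867-45093244, listed at 0 in both C GCB libraries and at 1.30, 4.20 and 2.80 RPPM in C BMPC.

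**Figure D3:**
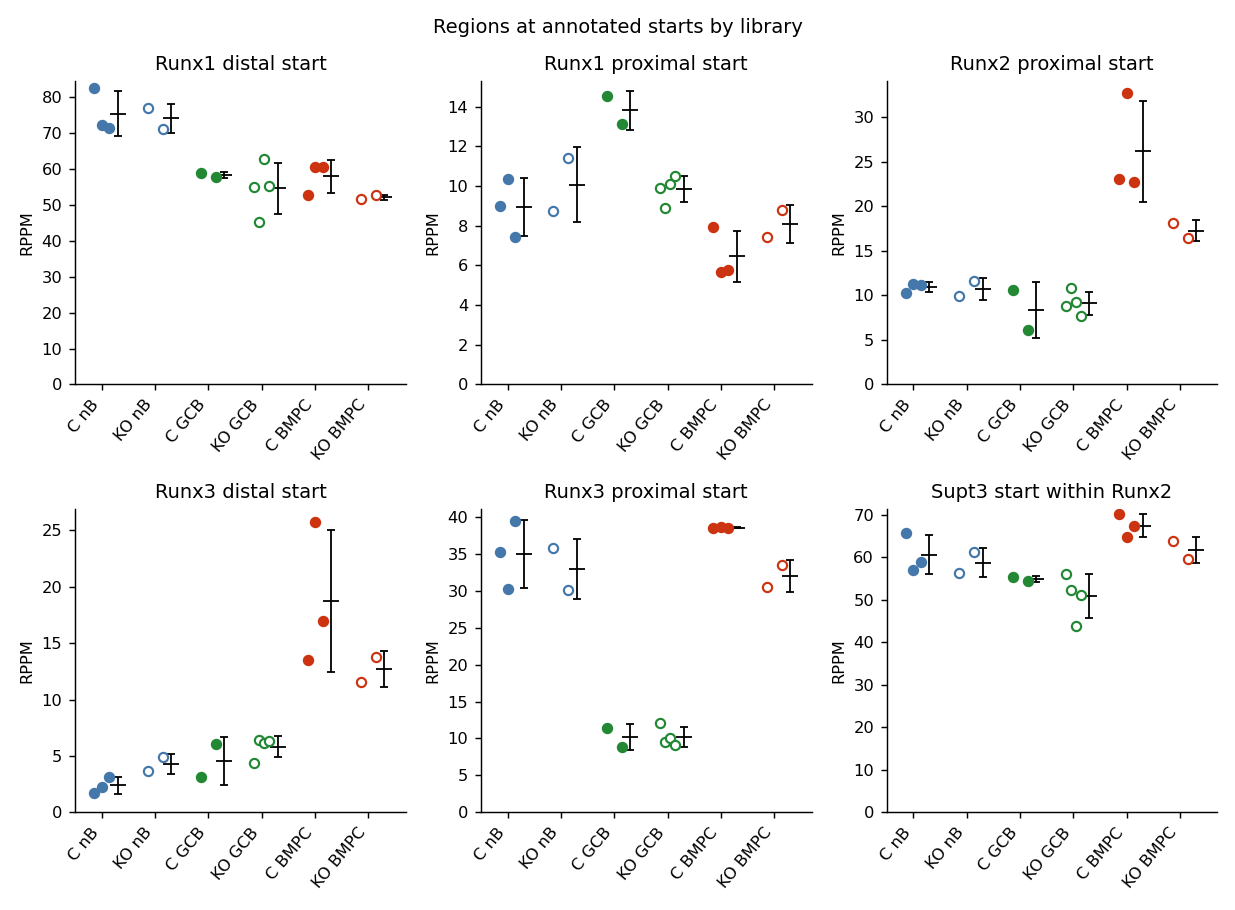
RPPM per library at regions covering annotated starts, with the mean and SD of each group. The proximal Runx2 starts and the distal Runx3 start are highest in BMPC, whereas the proximal Runx3 start is low in every GCB library (8.90 to 12.1 RPPM).

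At Runx3, the distal and proximal starts behaved differently. The distal start is the one used mainly in cytotoxic T cells, and its region chr4:134676047-134676654 measured 1.71, 2.26 and 3.16 RPPM in C nB, 3.08 and 6.09 in C GCB and 13.5, 25.7 and 17.0 in C BMPC. It rose in BMPC by 2.52 ± 0.27 on the log2 scale from nB and by 1.83 ± 0.30 from GCB (limma, adjusted p = 6e-09 and 1.1e-05). In KO it measured 3.62 and 4.92 RPPM in nB, 4.41 to 6.36 in GCB and 11.5 and 13.8 in BMPC, a log2 difference from nB to BMPC of 1.38 ± 0.33 (adjusted p = 0.00094), which was not called without KO nB replicate 1 (adjusted p = 0.02) or KO BMPC replicate 2 (0.018). KO nB thus lay above C nB and KO BMPC overlapped C BMPC from below, and neither difference between genotypes was called. The 2 RUNX cores printed above fall within this region, just before the start.

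The proximal Runx3 start was less accessible in GCB than in the other cell types. Its region, chr4:134708061-134708982, measured 35.3, 30.3 and 39.5 RPPM in C nB, 11.4 and 8.90 in C GCB and 38.5, 38.7 and 38.6 in C BMPC. The GCB libraries of both genotypes lay between 8.90 and 12.1 RPPM and every other library at 30.1 RPPM or above. The region fell by 1.69 on the log2 scale from C nB to C GCB (SE 0.17, limma, adjusted p = 1e-08) and rose by 1.84 from C GCB to C BMPC (SE 0.17, adjusted p = 1.2e-09), while nB and BMPC differed by 0.14 ± 0.15 (adjusted p = 0.45). In KO it fell by 1.60 and rose by 1.57 at the same steps. Per kb, the proximal region measured 38.0, 11 and 41.9 RPPM per kb in C nB, C GCB and C BMPC, and the distal region 3.91, 7.54 and 30.8.

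This fall and return was shared by 2 other Runx3 regions in both genotypes. The intron region chr4:134709545-134710266, 1.13 kb downstream of the proximal start, averaged 26.9, 9.71 and 33.8 RPPM in C nB, C GCB and C BMPC. The region chr4:134758973-134759917, 50.6 kb downstream and closest to Clic4, averaged 38.8, 14.1 and 38.6 RPPM and fell by 1.40 on the log2 scale at the first step (SE 0.17, limma, adjusted p = 2.1e-07). A neighbor of the latter, chr4:134761902-134762708, averaged 40.9, 23.0 and 36.4 RPPM, and its fall was called in KO (-1.12 ± 0.16, adjusted p = 1.6e-06) and not in C (-0.81). With quantile normalization it was -0.95 in KO and was not called. The difference between the genotypes in this fall was not called.

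Distal Runx3 regions opened toward BMPC. The intron region chr4:134717261-134717791, 8.85 kb downstream of the proximal start, measured 0.731, 0.565 and 0.558 RPPM in C nB, 7.92 and 2.81 in C GCB and 12.2, 21.0 and 16.2 in C BMPC. The KO libraries measured 0.987 and 0.590 RPPM in nB, 4.82 to 6.61 in GCB and 15.3 and 12.3 in BMPC. It was the one Runx3 region called higher at each step in C, with log2 differences from nB to BMPC of 3.40 ± 0.29 in C and 3.05 ± 0.35 in KO (limma, adjusted p = 8.4e-11 and 5e-08). Without C GCB replicate 2 its second step in C was below 2-fold, at 0.94 on the log2 scale. With a pseudocount of 5 RPPM its first step was below 2-fold, at 0.84 in C and 0.91 in KO. The second step in KO was no longer called with a pseudocount of 0.1 RPPM (limma, adjusted p = 0.014) or 5 RPPM (log2 difference 0.79). Without KO BMPC replicate 1 or 2 that step was also not called (log2 differences 0.96 and 1.26). The region chr4:134689544-134690052, 13.0 kb downstream of the distal start, was below the floor in C nB, at 0.188 to 0.487 RPPM, and measured 3.96 and 3.75 RPPM in C GCB and 7.67, 8.58 and 9.65 in C BMPC. The region chr4:134635797-134636831, 39.7 kb upstream, averaged 3.98, 1.55 and 15.1 RPPM and rose by 2.78 ± 0.37 on the log2 scale from C GCB to C BMPC (adjusted p = 4.3e-07). Of the 2 Runx3 regions called lower from C nB to C BMPC, chr4:134609563-134609918, 66.6 kb upstream, fell from 3.51 to 0.728 RPPM on average, by 1.39 on the log2 scale (SE 0.33, adjusted p = 0.00084). The other, chr4:134737688-134738173, 29.3 kb downstream of the proximal start, was added after its values were seen and measured 28.0, 26.8 and 30.9 RPPM in C nB and 13.0, 8.94 and 11.1 in C BMPC. It fell by 1.31 on the log2 scale (SE 0.19, limma, adjusted p = 1.2e-06), a larger loss in RPPM than at the first, and in KO the log2 difference was -0.41 and was not called.

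**Figure D4:**
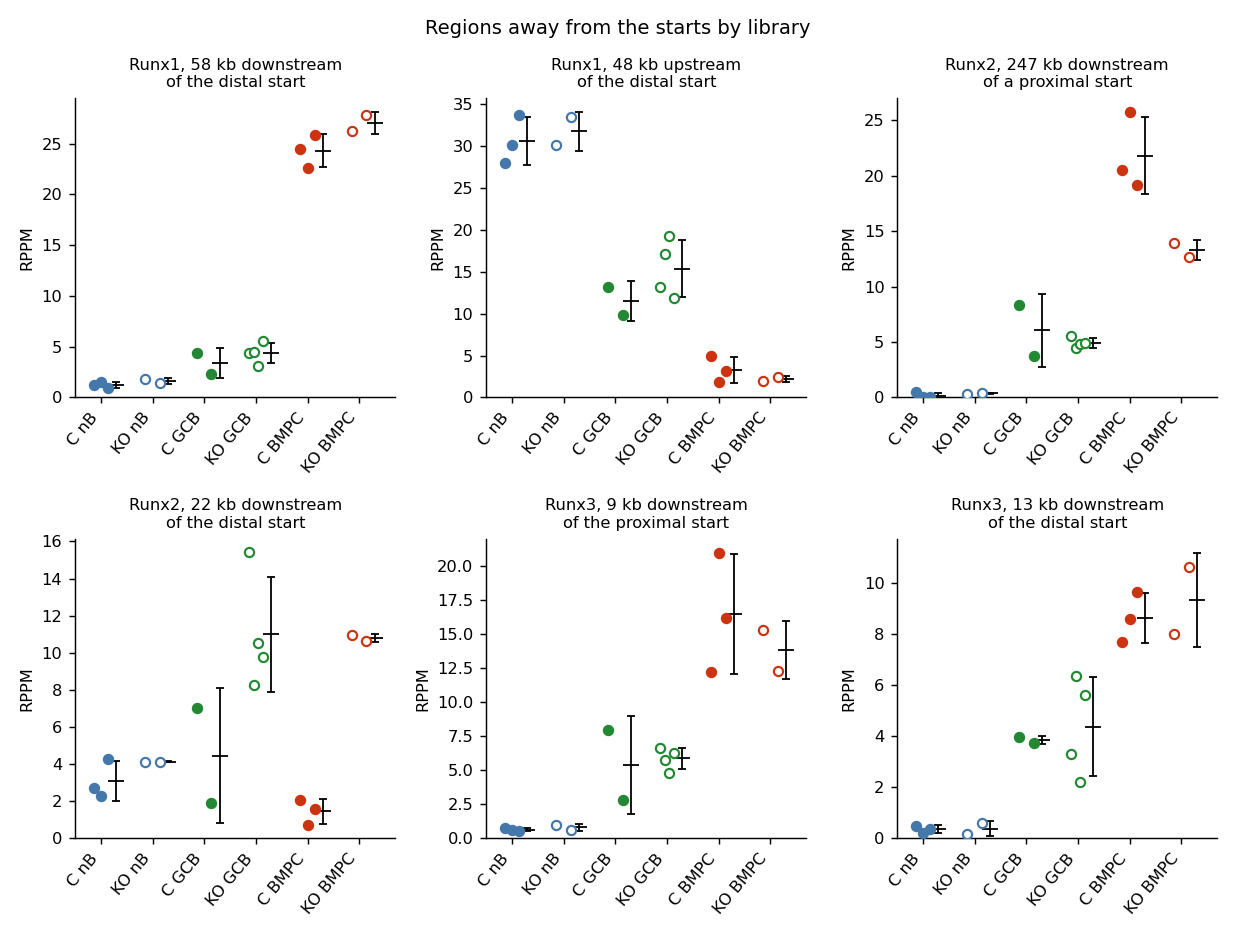
RPPM per library at regions away from the starts, with the mean and SD of each group. The Runx1 region 47.8 kb upstream falls stepwise, and at the Runx2 intron region 22.3 kb from the distal start KO BMPC (10.6 and 10.9 RPPM) stand above C BMPC (0.730 to 2.08 RPPM).

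The same comparisons were made among KO libraries. From KO nB to KO GCB 21 Runx regions were called (26.3% of all regions), 12 higher (18.4%) and 9 lower (7.84%). From KO nB to KO BMPC 35 were called (35.3%), 20 higher (18.4%) and 15 lower (16.9%). From KO GCB to KO BMPC 27 were called (32%), 17 higher (12.1%) and 10 lower (19.9%). From KO nB to KO BMPC, 14 Runx1 regions fell and 1 rose, 10 Runx2 regions rose and none fell, and 9 Runx3 regions rose and 1 fell. Quantile normalization, which moved the median of all regions by -0.19, gave 5 higher and 10 lower from KO nB to KO GCB. Higher calls were then 33.3% of the Runx calls, beside 50.7% of the calls over all regions. These counts moved with single libraries: without KO nB replicate 1 or 2, 13 or 11 were called from KO nB to KO GCB, without KO nB replicate 2 or KO BMPC replicate 2, 20 or 21 from KO nB to KO BMPC, and without KO BMPC replicate 2, 16 from KO GCB to KO BMPC. Of the regions called from nB to BMPC, 28 were called in both genotypes in the same direction, which is 71.8% of the C calls and 80.0% of the KO calls, beside 79.9% and 86.3% over all regions. For nB to GCB 15 were shared (78.9% and 71.4%, beside 76.9% and 66.5% over all regions), and for GCB to BMPC 21 (75% and 77.8%, beside 77.7% and 73.9%). No Runx region was called in opposite directions.

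**Figure D5:**
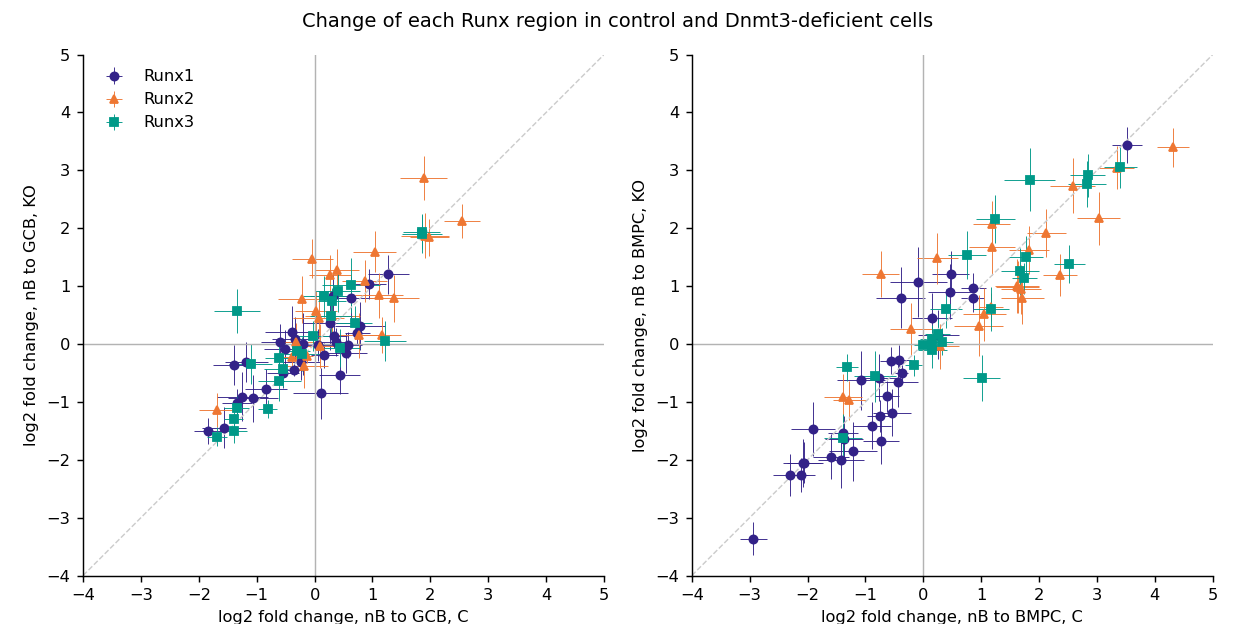
Each point is 1 Runx region, with its log2 difference between 2 cell types in C on the horizontal axis and in KO on the vertical axis, and error bars give the SE from limma. Most regions keep their sign in both genotypes, 69 of 77 from nB to BMPC.

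Few Runx regions were called between genotypes. With limma, 0 of 77 were called in nB (0% of all regions), 0 in GCB (0.0317%) and 1 in BMPC. That call is 1.30% of the Runx regions, beside 0.104% of all regions. Of the 77, 3, 15 and 12 had an unadjusted p under 0.05. Each is a larger share than that of all regions, which was 1.67%, 11.8% and 9.55%. The quasi-likelihood test of edgeR on the recovered reads called 0, 0 and 1, beside 0.0106%, 0.00151% and 1.81% of all regions. Its likelihood ratio test called 0, 0 and 4, beside 0.0151%, 0.0181% and 2.53%. Of all regions in BMPC, limma called 69 and these edgeR tests 1201 and 1677. A lack of limma calls therefore does not show that the genotypes were alike. No interaction of genotype with cell type was called by limma in any Runx region (0% of all regions for each of the 3 interactions), where 7, 11 and 4 had an unadjusted p under 0.05 for BMPC against nB, BMPC against GCB and GCB against nB, as did 5.24%, 8.32% and 6.21% of all regions. The likelihood ratio test called 1 interaction, of genotype with BMPC against nB (0.267% of all regions).

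The region called in BMPC was chr17:44928504-44929450, in an intron of both Runx2 and Supt3 and the nearest region to the distal Runx2 start, 22.3 kb away. It measured 2.08, 0.730 and 1.56 RPPM in C BMPC and 10.9 and 10.6 in KO BMPC. In GCB it measured 7.04 and 1.87 RPPM in C and 15.4, 8.27, 10.5 and 9.79 in KO, and in nB 2.68, 2.26 and 4.28 RPPM in C and 4.11 and 4.13 in KO. In GCB and BMPC every KO library was above every C library, and in nB the genotypes overlapped. The log2 difference of KO from C was 2.30 ± 0.36 in BMPC (limma, adjusted p = 0.0023), 1.29 ± 0.34 in GCB (adjusted p = 0.11, not called) and 0.36 ± 0.36 in nB (adjusted p = 1). The genotype difference in BMPC exceeded that in nB by 1.94 ± 0.51 on the log2 scale, which was not called with limma (adjusted p = 0.385) and was called with the likelihood ratio test of edgeR (2.32, adjusted p = 0.000861). In C the log2 difference from nB to BMPC was -0.74 and was not called, and in KO the region rose from nB to GCB by 1.2 ± 0.34 (adjusted p = 0.0052). That rise was not called with a pseudocount of 0.1 RPPM (adjusted p = 0.021), with quantile normalization (0.024) or without KO nB replicate 1 (0.045), KO nB replicate 2 (0.043) or KO GCB replicate 1 (0.014).

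This call rested on few libraries. Without C BMPC replicate 2 the adjusted p was 0.0269, without C BMPC replicate 3 it was 0.0118, and without KO BMPC replicate 1 or 2 it was 0.0638 or 0.113, so that the region was no longer called. Without C BMPC replicate 1 it was called (adjusted p = 0.00237). With quantile normalization the adjusted p was 0.0142, and edgeR gave a log2 difference of 2.74 with adjusted p of 2.06e-08 (quasi-likelihood) and 2.49e-16 (likelihood ratio). Between them, all the alternatives gave log2 differences from 1.30 to 2.92.

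The likelihood ratio test called 3 more Runx regions between KO and C BMPC. The Runx2 region chr17:44595885-44596476, outside genes, was lower in KO, with 11.3, 10.2 and 9.65 RPPM in C and 6.80 and 3.73 in KO (log2 difference -1.0, edgeR, adjusted p = 0.00509). The Runx2 intron region chr17:44846892-44847145 was higher in KO, with 0.520, 0.182 and 0.934 RPPM in C and 2.31 and 3.36 in KO (2.19, edgeR, adjusted p = 0.00281). The Runx1 intron region chr16:92724879-92725115 measured 0.650, 0.182 and 1.40 RPPM in C and 0 in both KO libraries, mostly near the floor. Limma called none of these 3.

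Among regions that were not called, the smallest p in GCB belonged to regions near or below the GCB floor. The Runx1 intron region chr16:92808071-92808257 measured 0.440 and 0 RPPM in C GCB and from 2.10 to 2.63 in KO GCB (adjusted p = 0.066, limma). The Runx3 region chr4:134610391-134610615 measured 0.880 and 0 RPPM in C and 1.91 to 5.51 in KO (adjusted p = 0.071). The Runx2 intron region chr17:44750996-44751263 measured 0.880 and 0.468 RPPM in C and 2.63 to 3.82 in KO (adjusted p = 0.082). Because 3 reads are worth from 1.32 to 3.30 RPPM in these libraries, differences of this size were at the limit of the depth. In nB the smallest p was at the Runx3 region chr4:134628580-134628886, with 0.974, 1.51 and 1.49 RPPM in C and 3.62 and 3.74 in KO (unadjusted p = 0.0083, adjusted p = 1). Far upstream of Runx1, at 202 kb, chr16:93028674-93029429 measured 11.2, 10.4 and 9.68 RPPM in C nB and 14.5 and 15.5 in KO nB, and 25.9, 14 and 21.2 in C BMPC and 28.7 and 32.3 in KO BMPC. The KO values were above the C values in both cell types, and neither difference was called.

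Genes that act with RUNX factors were taken from fixed lists. Cbfb, the gene of the shared partner, had 3 regions, none of which was called in any comparison, and their sum averaged 84.2, 67.8 and 90.0 RPPM in C nB, C GCB and C BMPC. From C nB to C BMPC, 18 of 87 regions of corepressor genes rose and 18 fell, so that 41.4% were called beside 38.1% of all regions. Of all regions, 18% rose and 20.1% fell. Tle1, which encodes a Groucho family corepressor, fell in 3 of 3 regions, its sum averaging 122 ± 21.4 RPPM in C nB and 44.2 ± 5.0 in C BMPC. Cbfa2t3, which encodes an ETO family corepressor, rose in 9 of 17 regions and fell in none, with sums of 144 and 319.9 RPPM. Tle3 had 6 of 32 regions rise and 9 fall, while its sum was higher in C BMPC, at 370 ± 10.2 RPPM (SD) beside 299 ± 10.1 in C nB.

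Of 65 regions of coactivator and modifier genes, 19 rose and 11 fell (46.2% called). Over all regions 18% rose, 20.1% fell and 38.1% were called. Pim1, which encodes a kinase able to phosphorylate RUNX proteins, rose in 12 of 21 regions and fell in none, with sums of 232 RPPM in C nB and 465 in C BMPC. Of 114 regions of genes known as RUNX targets in other cells, 25 rose and 38 fell (55.3% called), beside the same shares of all regions. Most of these falls lay in Ebf1 and Ifng, so the count largely reports 2 genes. Csf2, which encodes GM-CSF, rose in 5 of 6 regions, from a sum of 5.37 to 70.8 RPPM, and Prf1, which encodes perforin, in 2 of 4, from 4.27 to 44.9 RPPM. Ifng, which encodes interferon-γ, fell in 12 of 16 regions, from 213 to 39.7 RPPM, and Ebf1, which encodes an early B cell factor, rose in 9 of 54 and fell in 20. Between KO and C, limma called no region of these lists in any cell type. Of all regions it called 0% in nB, 0.0317% in GCB and 0.104% in BMPC, so this lack of calls does not set the lists apart. Some sums still differed between genotypes in BMPC, in both directions. Prf1 averaged 44.9 ± 9.45 RPPM (SD, n = 3) in C BMPC and 19.96 ± 1.08 (SD, n = 2) in KO BMPC. Tle3 was higher in KO BMPC, at 443.6 ± 17.5 RPPM beside 370 ± 10.2 in C BMPC. These 2 genes were chosen after their values were seen, and the differences in sums were not tested.

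The genes whose summed accessibility followed the Runx loci most closely across the 16 libraries were ranked among 6964 genes that had at least 3 regions and a mean sum of at least 10 RPPM. For Runx1 these were 0610040J01Rik (Pearson r = 0.953), Abcb4 (0.952) and Capsl (0.946), for Runx2 Prf1 (0.976), Sil1 (0.970) and Faf1 (0.966), and for Runx3 Dtnb (0.985), Psmb9 (0.983) and Anxa6 (0.981). The 16 libraries fall into 3 cell types and share depth differences between them, so these values describe a common course over cell types and were given no p. Prf1 averaged 4.27, 6.73 and 44.9 RPPM in C nB, C GCB and C BMPC and, like Runx2, was highest in BMPC. Dtnb averaged 219.5 RPPM in C nB, 144 in C GCB and 290 in C BMPC and, like Runx3, was lowest in GCB.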

How the data were processed

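The 16 libraries with values took their cell type and genotype from the labels; of 17 labelled samples, 1 KO BMPC sample had no column and was not analysed here. Bowtie was used by the authors to align trimmed reads to mm9, and MACS2 (q of 0.01) to find peaks per sample, which were merged into 1 set of regions. The deposited RPM values, here RPPM, give the reads of a region for every 1000000 reads its library had in regions. Versions in the submitters' processing notes are Bowtie 1.1.1, MACS2 2.1.0.20140616, Picard 1.127 and edgeR 3.12.1. The 54 deposited columns of the authors' own comparisons, such as log2 fold changes and p-values, were not used. Libraries came from separate mice or pools of 2 mice, so p-values measure the spread between these.

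Every value was a whole multiple of 1 read (100% within 0.001). In R 4.3.3, limma 3.58.1 was fitted once to the log2(RPPM + 1) values of all 6 groups over 66177 regions, with a mean-variance trend and p-values adjusted by Benjamini-Hochberg. Calls needed a 2-fold or larger difference with an adjusted p no greater than 0.01, and ± is the SE for log2 differences. Alternatives were pseudocounts of 0.1 and 5 RPPM, quantile normalization, TMM scaling, a filter at a mean of 1 RPPM, other fits, each library left out, and edgeR 4.0.16 on recovered reads. The scripts were tested on simulated data. Sequences were read from the mm9 genome with pysam 0.24.0, and tables with Python 3.11.15, pandas 2.3.3 and numpy 2.4.6. Plots were drawn with matplotlib 3.10.9.

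The Runx regions and gene lists were chosen with earlier results of these data known. Regions described singly were those within 1000 bp of a start, the 3 most accessible of each gene, the called region with the largest rise and fall in each comparison of C cell types, and the regions called, or with the smallest p, between genotypes; others are named as chosen after their values were seen, as are chr4:134709545-134710266 and the 3 regions called by the likelihood ratio test alone.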

Additional observations from a re-analysis of the deposited data

Results flagged for a closer look

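Among 34 sets of KO GCB values examined, the one group with 4 libraries, 4 held a library whose gap to the nearest of the others exceeded, as a share of the range, Dixon's 95% critical value for 4 samples, where chance marks about 1 in 20. At the Runx1 region chr16:92698327-92699272, KO GCB replicate 4 measured 14.7 RPPM and the others 19.7 to 20.2 RPPM. At the Runx1 intron region chr16:92786941-92787729, KO GCB replicate 1 measured 9.91 RPPM and the others 5.59 to 5.73 RPPM. At the distal Runx3 start, the same library measured 4.41 RPPM and the others 6.14 to 6.36 RPPM. At the Runx3 region chr4:134761902-134762708, KO GCB replicate 3 measured 27.2 RPPM and the others 17.8 to 18.7 RPPM. KO GCB replicate 1 was the shallowest library, with 3 reads worth 3.30 RPPM, and the part of depth in these gaps was not tested.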

How the results depend on the processing

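With a pseudocount of 5 RPPM, the Runx regions called numbered 8, 18 and 13 in C and 5, 12 and 11 in KO from nB to GCB, nB to BMPC and GCB to BMPC, since it shrinks differences at low values. Leaving out each library in turn gave 16 to 17, 36 to 40 and 22 to 30 calls in C and 11 to 22, 20 to 27 and 16 to 29 in KO. Between KO and C these numbers were 0 in nB, 0 in GCB and 0 to 1 in BMPC, and 0 for each interaction. For the pseudocount of 5 RPPM and the libraries left out, the shares of all regions are not given here. Whether Runx calls were lost more often than others therefore cannot be read from these counts. For KO against C BMPC, quantile normalization called 0 and the likelihood ratio test of edgeR 4, and that test called 1 interaction of genotype with BMPC against nB; the cause was not tested. For 85 called log2 differences at regions described singly, 985 of 1135 alternative values stayed called, 150 were no longer called, 47 of them with the pseudocount of 5 RPPM, and 0 changed sign. For 6 that were not called, none of the 84 alternative values was called. In GCB, C and KO share the pool names F2 and M1. Deviations of pools with the same name correlated at 0.0363 and 0.0638. The deviations of the 2 C GCB libraries from their mean mirror each other, so these correlations cannot decide whether the names mark pairs. The names were not taken as pairs. A fit with the pool as a replicate block called 0 Runx regions between KO and C GCB, as did the fit without it. Pools F1 and F3 have no C library, so the block fit cannot decide the question either. GCB depth, with 3 reads worth up to 3.30 RPPM, limits what can be seen at low regions.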
